A study of Mus musculus with 20 samples.

Results

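The type I interferon response genes described here are 39 known interferon-stimulated genes, taken by symbol from the raw count table. All 39 were among the 23329 symbols of that table, all had counts, and all passed the filter on low counts, which left 15363 genes for testing. They were followed as CPM, counts scaled to a common library size, in 20 libraries of polyadenylated RNA from sorted mouse myeloid cells (strain C57BL/6) in 6 groups. Microglia (MG), the resident macrophages of the brain, came from normal brain (n = 3), from gliomas of a genetically engineered mouse model (GEMM, n = 3) and from gliomas of the mouse line GL261 (n = 3). Bone-marrow-derived macrophages (BMDM), which enter the tumour from blood, came from the same GEMM tumours (n = 3) and the same GL261 tumours (n = 3), and Ly6C-high monocytes came from blood (n = 5).

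Per the labels' protocols, GEMM gliomas were made by injecting DF1 cells that carried RCAS-PDGFB-HA mixed with DF1 cells that carried RCAS:shP53 into the right frontal cortex of Flt3:Cre Rosa26:mTmG mice aged 5 to 6 weeks (week 6 in another sentence of the same text). RCAS is an avian retroviral vector. The tumour cells were gated as CD45+ CD11b+ Ly6C- Ly6G-, and the mTmG reporter, which Flt3-driven Cre switches in descendants of blood progenitors, parted MG (GFP- TdTomato+) from BMDM (GFP+ TdTomato-). The same protocol text is attached to every sample, so whether the GL261, normal brain and blood samples came from reporter mice, how GL261 tumours were made, and the ages of those animals were not given in the sources used here. Each library carries a number, which the MG and BMDM of 1 tumour share. For normal brain and blood nothing says whether numbers are separate animals or pools, so p-values there measure the spread between these samples, which may be partly technical.

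As background, type I interferons (IFN-alpha and IFN-beta) bind the receptor made of Ifnar1 and Ifnar2, whose kinases Jak1 and Tyk2 start the signal. It leads to the factor ISGF3, which holds Stat2 and Irf9 and binds interferon-stimulated response elements in promoters of antiviral genes. Several products of those genes act back on the pathway: Irf7 drives further interferon transcription, the RNA sensors Ifih1 and Ddx58 feed into it, and Usp18 restrains the receptor. In microglia the program is known from viral infection, ageing and neurodegeneration as well as from tumours.

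Library totals ran from 5077787 to 7801073 counts in monocytes and from 18113450 to 36297826 in the other groups, and no member was at 0 in any library. The monocyte libraries also stood apart in Xist, the RNA of the inactive X chromosome, at 142 to 645 CPM against at most 2.88 CPM elsewhere, so that sex and cell type cannot be told apart in comparisons with monocytes. Monocyte libraries 64820 and 64821 held 13.5% and 14.3% of their counts in the ribosomal transcript Rn45s, against 1.05% to 1.62% in the other monocyte libraries. Summed microglia markers (7 genes, among them P2ry12, Tmem119 and Sall1) were at 30700 to 34600 CPM in normal MG, 14600 to 23000 in GEMM MG and 2330 to 8130 in GL261 MG. They were at 2780 to 5830 CPM in BMDM of GEMM tumours, 799 to 1470 CPM in BMDM of GL261 tumours and 248 to 326 CPM in monocytes, and none of the 7 was at 0 throughout a group. The GL261 tumour 80769 stood apart: its summed monocyte and recruited macrophage markers (6 genes) were at 4480 CPM in MG and 23000 CPM in BMDM, against at most 39 and 555 CPM in the other tumours of those groups.

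Normal microglia held the program at a low level, and every other group held it several-fold higher. The mean of log2(CPM + 1) over the 39 genes was 3.86 ± 0.04 (SD, n = 3) in normal MG, 6.61 ± 0.30 (n = 3) in GEMM MG, 7.02 ± 0.46 (n = 3) in GL261 MG, 7.01 ± 0.12 (n = 5) in monocytes, 7 ± 0.37 (n = 3) in GEMM BMDM and 7.25 ± 0.64 (n = 3) in GL261 BMDM. The normal MG libraries, at 3.82 to 3.90, lay below every other library. The other 5 groups overlapped in this mean except that each GEMM MG library, at 6.27 to 6.84, lay below each monocyte library, at 6.88 to 7.20.

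**Figure D1:**
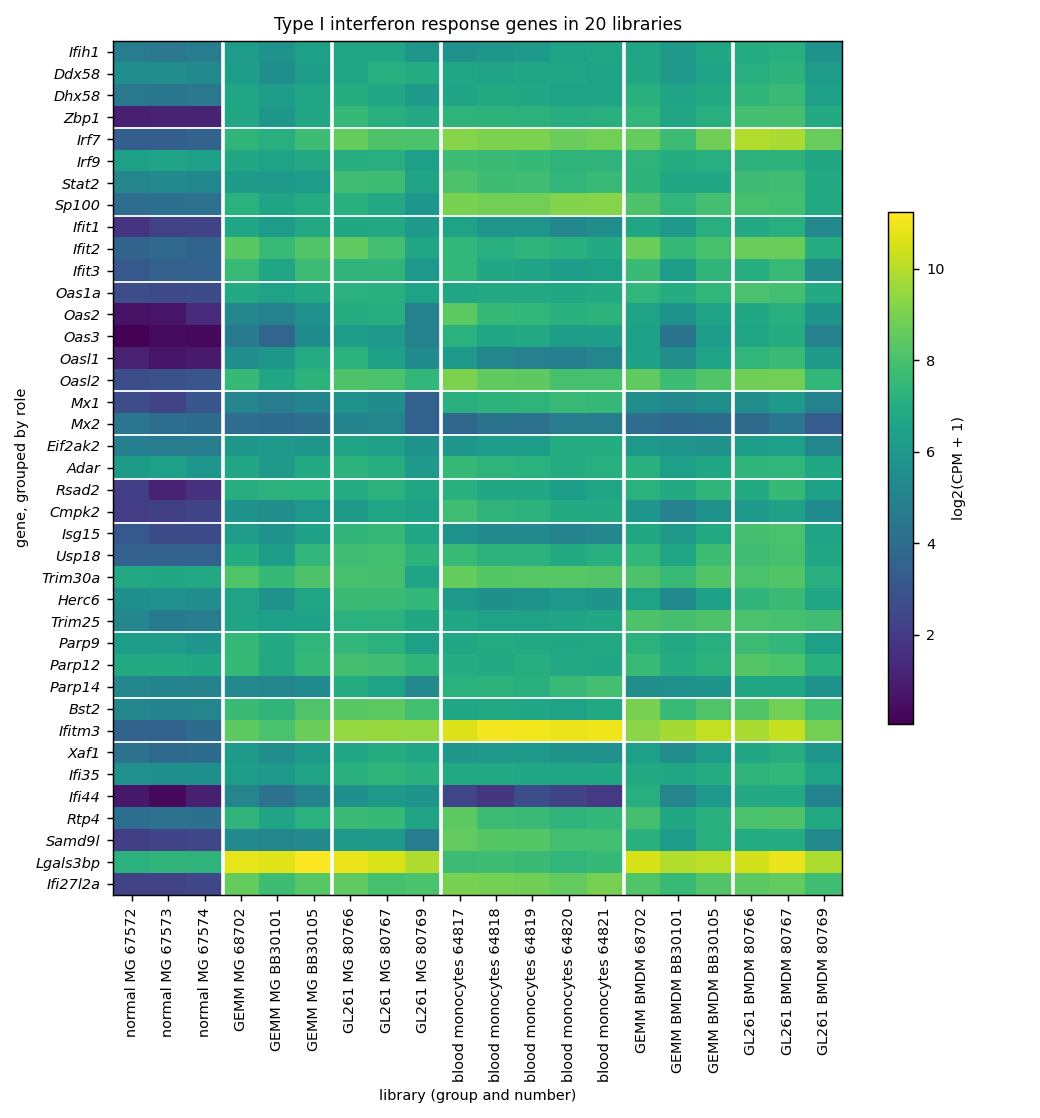
Heat map of log2(CPM + 1) for the 39 genes (rows, grouped by role, white lines between roles) in the 20 libraries (columns, white lines between groups). The 3 normal MG columns are dark across most rows, and the columns of tumour 80769 are darker than those of the other GL261 tumours.

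Tumour microglia of both models carried far more of the program than normal microglia. Of the 39 genes, 34 rose in GEMM MG and 37 rose in GL261 MG, by edgeR's quasi-likelihood test with p-values adjusted across the whole table (Benjamini-Hochberg, threshold 0.05). None was called lower in either model by edgeR, at an unadjusted p under 0.05 or by DESeq2. Among all genes tested, 23% were called higher and 20.9% lower in GEMM MG, and 30.6% higher and 27.2% lower in GL261 MG. The median log2 fold change of the 39 genes was 2.99 in GEMM MG and 3.23 in GL261 MG, beside −0.02 and 0.01 over all genes. Every tumour library exceeded every normal library for 36 of the 39 in GEMM MG and 35 in GL261 MG, which was the case for 30.3% and 33.4% of all genes. These comparisons share the normal MG libraries.

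Among the sensors of foreign nucleic acid, all 4 rose in both models. Zbp1, a Z-form nucleic acid sensor that can start cell death, was at 1.04, 1.17 and 1.23 CPM in normal MG, at 108, 62.8 and 107 CPM in GEMM MG and at 189, 133 and 110 CPM in GL261 MG. The groups lay far apart, with no normal library above 1.23 CPM and no tumour library below 62.8 CPM. The log2 fold change of Zbp1 was 6.32 ± 0.35 (SE; edgeR adjusted p = 1.2e-09) in GEMM MG and 6.96 ± 0.36 (edgeR adjusted p = 6.06e-10) in GL261 MG. The RIG-I-like RNA helicases rose less: Ifih1 (MDA5) by 1.55 and 1.85 on the log2 scale, Dhx58 (LGP2) by 2.11 and 2.21, and Ddx58 (RIG-I) by 0.61 and 1.43, in GEMM and GL261 MG.

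Of the transcription factors and nuclear body proteins, Irf7, Stat2 and Sp100 rose in both models. With all libraries Irf9 passed the edgeR test in neither. Irf7, the factor that amplifies interferon production, was at 9.41, 9.83 and 11.1 CPM in normal MG, at 165, 133 and 218 CPM in GEMM MG and at 383, 277 and 273 CPM in GL261 MG. The 3 groups did not overlap, and the log2 fold changes against normal MG were 4.09 ± 0.34 (edgeR adjusted p = 9.37e-08) and 4.94 ± 0.35 (edgeR adjusted p = 8.03e-09). Irf9, the DNA-binding subunit of ISGF3, was already at 84.8, 90.2 and 82.3 CPM in normal MG and at 107, 93.4 and 112 CPM in GEMM MG and 129, 139 and 81.3 CPM in GL261 MG, with edgeR adjusted p = 0.246 and 0.052. The exons of Irf9 overlap those of Rnf31 on the same strand, and those of Irf7 overlap Phrf1 on the opposite strand. Exons of Parp9 and Adar, given below, overlap those of Dtx3l and Chrnb2 on the opposite strand. Reads of these pairs may be shared.

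The Oas family had the highest median log2 fold change of any role in both models, 5.38 in GEMM and 6.65 in GL261 MG. All 5 Oas genes, 2-5A synthetases and their relatives that act against viral RNA, rose in both models, with log2 fold changes from 4.40 to 7.18 in GEMM MG and from 4.57 to 8.27 in GL261 MG. Oas3 was at 0.0336, 0.313 and 0.206 CPM in normal MG, which were 1, 8 and 6 counts. It reached 24.7, 12.1 and 43.9 CPM in GEMM MG and 74.7, 66.6 and 30.5 CPM in GL261 MG, all above the normal libraries, for log2 fold changes of 7.18 ± 0.84 (edgeR adjusted p = 3.19e-06) and 8.27 ± 0.86 (edgeR adjusted p = 3.64e-07). With so few normal counts the size of the Oas3 change is imprecise. Oasl1 was at 1.14, 0.627 and 0.823 CPM in normal MG against 45.9, 62.5 and 123 CPM in GEMM MG and 145, 85.6 and 42.4 CPM in GL261 MG. The log2 fold changes of Oasl1 were 6.46 ± 0.63 (edgeR adjusted p = 5.08e-07) and 6.70 ± 0.63 (edgeR adjusted p = 1.53e-07).

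All 3 Ifit genes, whose products hold back viral RNAs that lack host cap marks, rose in both models. Ifit1 was at 2.42, 3.72 and 4.01 CPM in normal MG, at 100, 71.9 and 111 CPM in GEMM MG and at 107, 111 and 67.2 CPM in GL261 MG, with log2 fold changes of 4.80 ± 0.45 (edgeR adjusted p = 3.37e-07) and 4.81 ± 0.45 (edgeR adjusted p = 1.4e-07). Ifit2 and Ifit3 rose by 4.47 and 4.15 in GEMM MG and by 4.25 and 3.75 in GL261 MG on the log2 scale. Ifit2, Ifit3 and Ifit1 lie side by side on chromosome 19 between 34550694 and 34650009 (GRCm38, the assembly of the mm10 build in the submitters' processing notes). Ifit3 has a near-identical neighbour, as do Oas1a, Trim30a and Ifi27l2a, and the authors' counting could have split reads among such copies.

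In the ISG15 system all 5 genes rose in both models. Isg15, the ubiquitin-like protein attached to targets during antiviral responses, was at 7.83, 5.05 and 4.90 CPM in normal MG against 75.3, 53.7 and 86.5 CPM in GEMM MG and 166, 182 and 103 CPM in GL261 MG. The 3 groups did not overlap, and Isg15 rose by 3.60 ± 0.36 (edgeR adjusted p = 7.75e-07) and 4.66 ± 0.38 (edgeR adjusted p = 3.52e-08) on the log2 scale. Usp18, which removes ISG15 and damps the interferon receptor, rose by 3.52 and 4.22. The ubiquitin ligases moved less, with log2 fold changes of 0.78 and 2.01 for Herc6, 1.58 and 2.19 for Trim25 and 1.21 and 0.89 for Trim30a.

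Genes of nucleotide metabolism and membrane restriction also rose throughout. Rsad2 (viperin), which makes a chain-terminating nucleotide, rose by 5.97 ± 0.35 (edgeR adjusted p = 3.03e-09) and 5.81 ± 0.35 (edgeR adjusted p = 1.77e-09), and its neighbour on chromosome 12, the nucleotide kinase Cmpk2, rose by 3.95 and 4.55. Ifitm3, which blocks virus entry at endosomes, was at 11.1, 10.7 and 15.3 CPM in normal MG, at 357, 259 and 428 CPM in GEMM MG and at 713, 731 and 724 CPM in GL261 MG. The 3 groups lay apart, and the log2 fold changes of Ifitm3 were 4.82 ± 0.33 and 5.87 ± 0.35 (edgeR adjusted p = 1.19e-08 and 1.52e-09). Bst2 (tetherin), which holds budding virions at the membrane, rose by 2.67 and 3.14.

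The weakest responses were among the GTPases, the PARP family and the enzymes that act on RNA duplexes. Mx1, of a family of antiviral GTPases, rose by 2.48 and 2.70, which says nothing of its protein. Its relative Mx2, annotated as a polymorphic pseudogene, passed the test in neither model. Mx2 was at 15.2 to 20.8 CPM in normal MG, 14.9 to 17 CPM in GEMM MG and 10.5 to 35.1 CPM in GL261 MG. Parp9 rose by 1.16 and 0.96. Parp12 and Parp14 passed the test in GL261 MG, at 0.92 and 1.34, and not in GEMM MG, at 0.50 and 0.21. The kinase Eif2ak2 (PKR), which stops translation on binding duplex RNA, rose by 1.23 and 1.50, and Adar, which edits adenosines in such RNA, had a log2 fold change of 0.45 (edgeR adjusted p = 0.208) in GEMM MG and 0.72 (edgeR adjusted p = 0.0391) in GL261 MG.

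The 7 remaining genes rose in both models, from 0.65 (Ifi35) to 6.28 (Ifi27l2a) in GEMM MG and from 1.56 (Ifi35) to 6.41 (Ifi44) in GL261 MG. Lgals3bp, a secreted glycoprotein that binds galectins, was at 148, 168 and 159 CPM in normal MG against 1830, 1690 and 2440 CPM in GEMM MG and 1920, 1580 and 965 CPM in GL261 MG. It held the highest CPM of the 39 genes in every tumour MG library, although CPM is not scaled to transcript length.

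**Figure D2:**
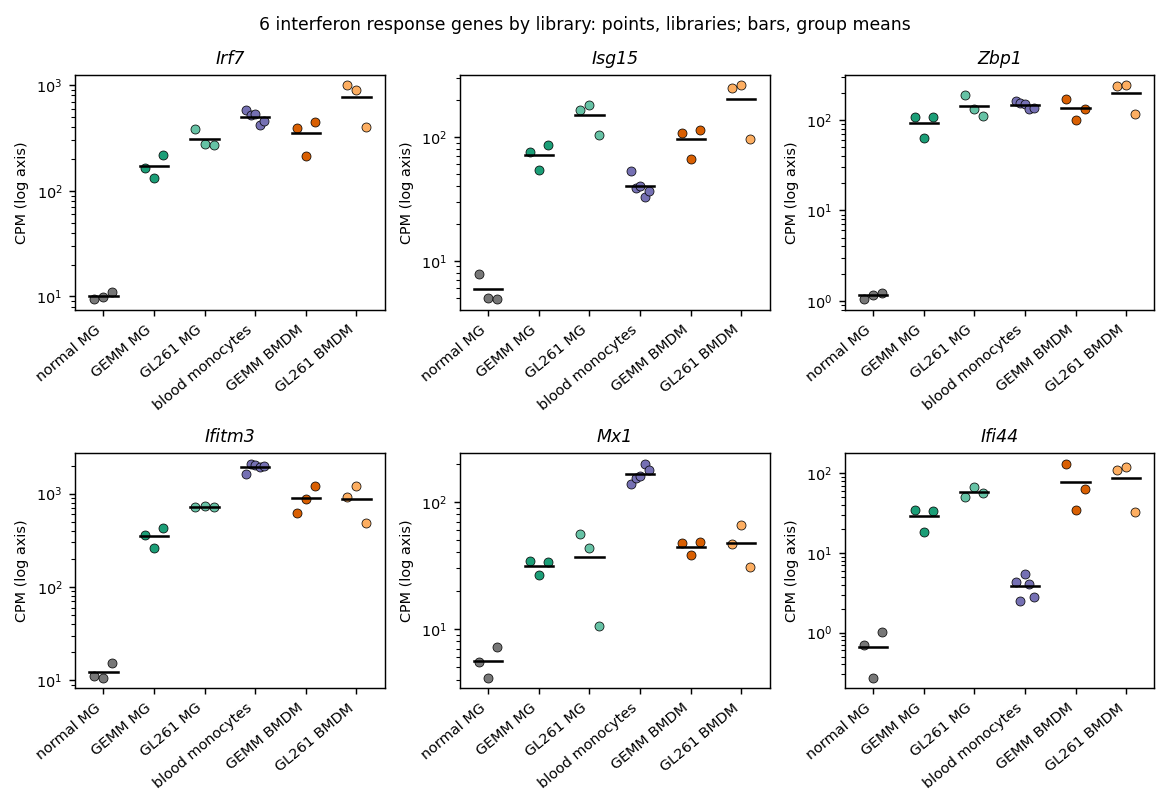
CPM of Irf7, Isg15, Zbp1, Ifitm3, Mx1 and Ifi44 (log axes) in each of the 20 libraries (points) by group, with bars at group means. All 6 genes are lowest in normal MG, Ifitm3 and Mx1 are highest in monocytes, and Isg15 and Ifi44 are lower in monocytes than in any tumour group.

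Markers of other cell types moved with the same comparison. Summed markers of oligodendrocyte precursors or glioma cells (5 genes) were at 1.55 to 4.01 CPM in normal MG, 127 to 184 CPM in GEMM MG and 363 to 782 CPM in GL261 MG, and those of plasmacytoid dendritic cells (6 genes), a major source of IFN-alpha, were at 7.05 to 11.4, 20.4 to 26.7 and 19.1 to 29.5 CPM. T cell markers (5 genes) were at 0.446 to 0.873, 0.542 to 7.63 and 9.47 to 18.1 CPM. Ly6d and Spib were at 0 in normal MG and Klk1 in both tumour MG groups among the plasmacytoid markers, and Cd3e was at 0 in normal MG. The part of these cells in the rise was not tested, and in sorted bulk RNA more cells of a type and more RNA per cell cannot be told apart.

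The promoters of many of these genes hold the letters that ISGF3 binds. In RefSeq promoter windows (GRCm38.p6, 250 bases before to 50 after the start, 300 in all), 29 of the 39 genes matched an entry. The letters GAAA, any 2 bases, GAAA were present on either strand in 13 of the 29 (44.8%, 95% Wilson interval 28.4% to 62.5%), against 3.99% of 27025 genes with an entry. The longer form, GAAA, any 2 bases, GAAAC, which contains the shorter, was present in 11 of the 29 (37.9%, 22.7% to 56%), against 0.944%. Ifit3, Ifih1, Ddx58, Trim30a, Eif2ak2 and Ifitm3 hold the shorter form and rose in tumour MG of both models, but are not shown. The stretches below are examples from the other genes with the shorter form, which also rose in both models. They are from RefSeq, 5′ to 3′ on the strand of the gene, and end before the start site, with matches to the shorter form in capitals; capitals that begin with TTTC are matches on the opposite strand.
Isg15 (chr4:156200850-156200909, minus strand): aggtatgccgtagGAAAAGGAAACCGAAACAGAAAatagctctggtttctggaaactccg
Ifit1 (chr19:34640779-34640838, plus strand): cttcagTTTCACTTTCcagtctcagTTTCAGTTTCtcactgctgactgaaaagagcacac
Oas1a (chr5:120907526-120907564, minus strand): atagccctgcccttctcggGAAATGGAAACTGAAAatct
Oas3 (chr5:120777700-120777759, minus strand): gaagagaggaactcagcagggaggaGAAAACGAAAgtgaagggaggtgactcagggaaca
Rsad2 (chr12:26456538-26456597, minus strand): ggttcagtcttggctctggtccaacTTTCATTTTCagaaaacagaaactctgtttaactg
Stat2 (chr10:128270251-128270310, plus strand): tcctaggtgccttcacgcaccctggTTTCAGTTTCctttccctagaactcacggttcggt
Bst2 (chr8:71537562-71537621, minus strand): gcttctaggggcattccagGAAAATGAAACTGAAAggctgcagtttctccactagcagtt

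In the Isg15 stretch 3 matches overlap in 1 run, and the Ifit1, Oas1a and Bst2 stretches hold 2 matches each. The 7 genes differ in size of response in GEMM MG from 0.92 for Stat2 to 7.18 for Oas3 on the log2 scale. Irf7, Oasl1 and Ifi44 rose as well and have no match in their windows. A match describes these letters and is not evidence of binding. Among the tested genes outside the 39, those with the shorter form were called higher in GEMM MG in 30.9% of 401 genes, against 22.6% of 10417 genes without it, and in GL261 MG in 39.4% against 29.6%.

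Blood monocytes, unlike normal microglia, already carried the program. Of the 39 genes 35 were lower in normal MG than in monocytes and none was called higher by edgeR, at an unadjusted p under 0.05 or by DESeq2, and 32.4% of all genes were called higher and 30.4% lower in normal MG. The median log2 difference of the 39 was −2.76, beside 0.01 over all genes. Ifitm3 was at 1620, 2100, 2050, 1930 and 1980 CPM in monocytes against at most 15.3 CPM in normal MG, a log2 difference of −7.29 ± 0.36 (edgeR adjusted p = 2.05e-11). Oas2 was at 347, 189, 176, 142 and 155 CPM in monocytes and at 0.504, 0.587 and 1.71 CPM in normal MG, a log2 difference of −7.74 ± 0.65 (edgeR adjusted p = 1.03e-08), and Oas3 differed by −9.12 ± 0.86 (edgeR adjusted p = 4e-08). Monocyte libraries lay wholly above normal MG for all 3. Mx2, Parp12, Herc6 and Lgals3bp were not called, with Lgals3bp at 169 to 218 CPM in monocytes and 148 to 168 CPM in normal MG.

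BMDM differed from monocytes gene by gene, with members called in both directions. In GEMM BMDM 7 genes were higher and 10 lower than in monocytes, where 31.6% of all genes were called higher and 25.7% lower. In GL261 BMDM 13 were higher and 8 lower, where 34.1% of all genes were called higher and 28.9% lower. The median log2 difference of the 39 was −0.13 in GEMM and 0.33 in GL261 BMDM, beside 0.08 and 0.06 over all genes, and the comparisons share the monocyte libraries. All 4 counts of members were below or near what the shares over all genes would give. The GEMM median lay between −0.30 and 0.09 when any BMDM library was left out, and without BMDM library BB30101 its counts turned to 10 higher and 7 lower (29.8% and 20.3% of all genes). The GL261 counts rest on tumour 80769: without its BMDM library 20 were higher and 5 lower (30.9% and 25.8% of all genes), and without both its libraries 20 and 6 (32.4% and 27.6% of all genes), so that the share of members called higher then lay above that of all genes.

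Ifi44, an interferon-induced protein of uncertain function, gave the largest difference. It was at 4.27, 2.53, 5.51, 4.13 and 2.81 CPM in monocytes against 132, 34.4 and 63.7 CPM in GEMM BMDM and 111, 120 and 32.5 CPM in GL261 BMDM. No BMDM library came near the monocyte values, and the log2 differences were 4.30 ± 0.46 (edgeR adjusted p = 4.62e-07) and 4.50 ± 0.46 (edgeR adjusted p = 2.24e-07). Lgals3bp was at 169 to 218 CPM in monocytes and at 1510, 1010 and 1140 CPM in GEMM and 1490, 1960 and 940 CPM in GL261 BMDM, log2 differences of 2.63 ± 0.23 (edgeR adjusted p = 3.49e-08) and 2.89 ± 0.23 (edgeR adjusted p = 9.58e-09). Isg15 was at 52.9, 39, 39.8, 32.6 and 36.6 CPM in monocytes, at 108, 65.8 and 114 CPM in GEMM BMDM and at 249, 261 and 96.7 CPM in GL261 BMDM, higher by 1.25 and 2.33 on the log2 scale. Bst2 was at 101, 114, 105, 88.9 and 116 CPM in monocytes, at 488, 192 and 289 CPM in GEMM BMDM and at 299, 473 and 233 CPM in GL261 BMDM, higher by 1.62 and 1.67. For both genes every BMDM library lay above every monocyte library. The same held for Trim25, a ligase that activates RIG-I, which was higher by 1.45 and 1.33.

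Other members were lower in BMDM of both models. Mx1 was at 139, 154, 160, 200 and 179 CPM in monocytes, at 47.2, 37.9 and 48.4 CPM in GEMM BMDM and at 46.3, 66 and 30.8 CPM in GL261 BMDM. All BMDM libraries lay below all monocyte libraries, with log2 differences of −1.90 ± 0.37 (edgeR adjusted p = 0.000308) and −1.80 ± 0.37 (edgeR adjusted p = 0.000418). Sp100, a nuclear body protein, was at 504, 472, 463, 581 and 594 CPM in monocytes, at 277, 173 and 241 CPM in GEMM BMDM and at 256, 234 and 113 CPM in GL261 BMDM, log2 differences of −1.18 and −1.38. Samd9l, a translation inhibitor, was at 381, 310, 317, 229 and 228 CPM in monocytes, at 142, 74.3 and 141 CPM in GEMM BMDM and at 121, 125 and 39 CPM in GL261 BMDM, differences of −1.30 and −1.62. Neither gene overlapped between monocytes and BMDM. Cmpk2 was at 222, 159, 153, 118 and 120 CPM in monocytes, at 60.4, 31.4 and 54.8 CPM in GEMM BMDM and at 66.1, 87.8 and 44.7 CPM in GL261 BMDM, differences of −1.66 and −1.22. Parp14, an ADP-ribosyltransferase, was at 146, 158, 142, 194 and 242 CPM in monocytes, at 47.6, 51.2 and 56.5 CPM in GEMM BMDM and at 108, 105 and 54.5 CPM in GL261 BMDM, differences of −1.77 and −0.98. These too lay wholly below monocytes, as did Ifitm3, which differed by −1.10 and −1.15, and Ifi27l2a, which differed by −0.82 and −0.56. Without the libraries of tumour 80769 Ifi27l2a was no longer called in GL261 BMDM (−0.35, edgeR adjusted p = 0.168). Under RLE size factors, the median of all genes in GEMM BMDM moved from 0.08 to −0.03. There 5 members were higher and 11 lower (28.3% and 28.6% of all genes). Without monocyte libraries 64820 and 64821, 5 members were higher and 10 lower in GEMM BMDM (30.2% and 23.5% of all genes). In GL261 BMDM 10 were then higher and 9 lower (32.9% and 26.3% of all genes). Neutrophil markers (6 genes) were at 1770 to 11800 CPM in monocytes, 195 to 2220 CPM in GEMM and 163 to 187 CPM in GL261 BMDM, and their part in these differences was not tested.

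**Figure D3:**
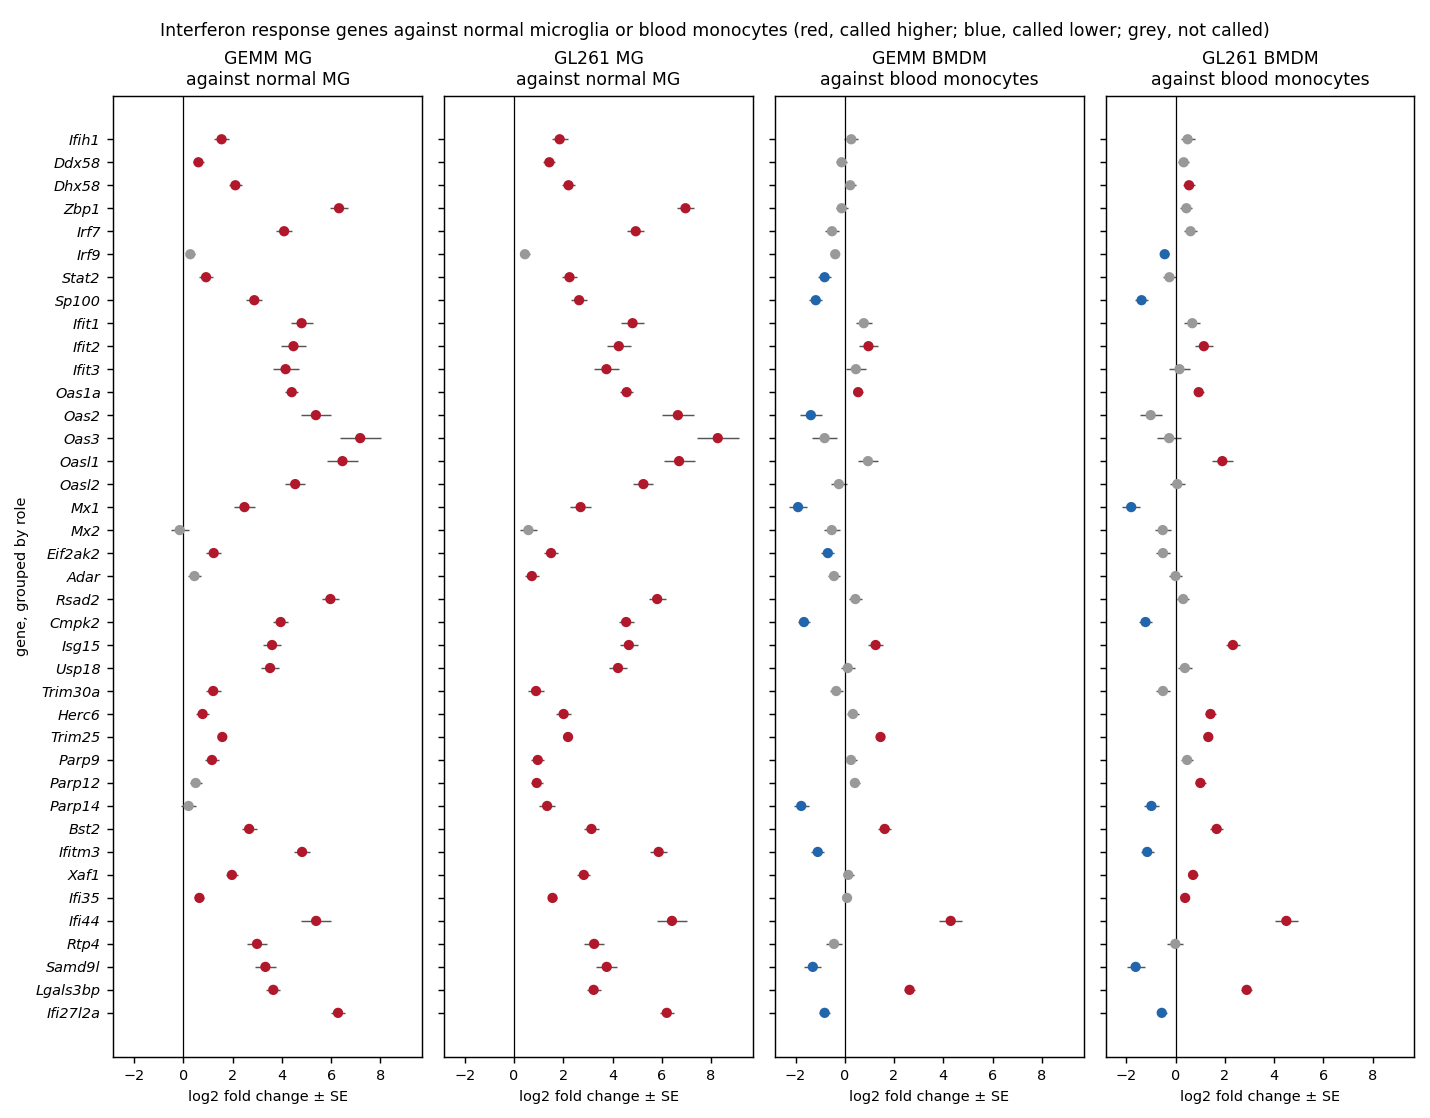
Log2 fold change ± SE (edgeR) of the 39 genes, grouped by role, in 4 comparisons: GEMM and GL261 MG against normal MG, and GEMM and GL261 BMDM against blood monocytes. Points in the MG panels lie to the right with 34 and 37 called higher, and points in the BMDM panels lie on both sides of 0.

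With all libraries, some of the genes were higher in BMDM than in MG of GEMM tumours, led by Trim25, Samd9l and Ifi44. In GL261 the share of members called was near that of all genes with all libraries. The GEMM count depended on single libraries, as given below. In GEMM 9 of the 39 genes were higher in BMDM (12.7% of all genes) and none was called lower by edgeR (8.1% of all genes), with 1 lower at an unadjusted p under 0.05 and 1 by DESeq2, Lgals3bp in both. In GL261 4 were higher (10.7% of all genes) and none was called lower (6.81% of all genes), with 1 lower at an unadjusted p under 0.05, Mx2, and 0 by DESeq2. The median log2 difference was 0.37 in GEMM and 0.21 in GL261, beside 0.01 and −0.08 over all genes. With the tumour as a replicate block over the 12 tumour libraries, 14 genes were higher (15.2% of all genes) and 1 lower, Lgals3bp (10.4%), in GEMM. In GL261 6 were higher (13.6% of all genes) and 1 lower, Mx2 (8.68%). The same 12 libraries without the block gave 3 and 2 higher, a fit for which shares over all genes were not drawn up. Without tumour 80769, 6 were higher in GL261 BMDM (8.62% of all genes) and 1 lower (5.52%). Markers of conventional dendritic cells (6 genes) were at 410 to 1130 CPM in GEMM BMDM against 14.6 to 57.5 CPM in GEMM MG and at 69.1 to 490 CPM in GL261 BMDM against 9.77 to 53.8 CPM in GL261 MG. T cell markers were at 4.77 to 56.4 CPM in GEMM BMDM and 10.9 to 17.2 CPM in GL261 BMDM, beside the MG values above. Cd209a was at 0 in GL261 MG among the dendritic markers, and the part of these cells was not tested.

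Trim25 was at 95.4, 81.1 and 87.5 CPM in GEMM MG against 282, 248 and 274 CPM in the matched BMDM, and at 148, 149 and 106 CPM in GL261 MG against 259, 257 and 222 CPM in BMDM. It was higher in BMDM of all 6 tumours with no overlap between groups, by 1.61 ± 0.16 (edgeR adjusted p = 2.47e-06) in GEMM and 0.87 ± 0.15 (edgeR adjusted p = 0.000729) in GL261 on the log2 scale. Irf7 was at 165, 133 and 218 CPM in GEMM MG and at 393, 213 and 451 CPM in BMDM, and at 383, 277 and 273 CPM in GL261 MG and 999, 899 and 400 CPM in BMDM. It too was higher in BMDM of all 6 tumours, by 1.03 ± 0.30 (edgeR adjusted p = 0.02) and 1.30 ± 0.30 (edgeR adjusted p = 0.00595), although the GEMM groups overlapped. Sp100 was at 147, 94.1 and 127 CPM in GEMM MG and 141, 111 and 59.4 CPM in GL261 MG, and with the BMDM values above it was called in both models, by 0.91 and 0.95, with overlap in GL261.

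Samd9l, Ifi44, Ifitm3, Oasl2, Stat2 and Ifi35 were called higher in GEMM BMDM and not in GL261 BMDM, and Oas1a in GL261 and not in GEMM. Samd9l was at 41.2, 35.6 and 41.9 CPM in GEMM MG and 142, 74.3 and 141 CPM in BMDM, with no overlap (1.59 ± 0.39, edgeR adjusted p = 0.00662). Ifi44 was at 34.7, 18.4 and 33.3 CPM in GEMM MG and 132, 34.4 and 63.7 CPM in BMDM, where BMDM library BB30101 lay just below the highest MG library (1.42 ± 0.47, edgeR adjusted p = 0.0396). The difference between the models was tested by the interaction of lineage and model, in which none of the 39 genes was called by edgeR, beside 0.605% of all genes called higher and 1.02% lower. At an unadjusted p under 0.05, 3 of the 39 had a smaller BMDM excess in GL261: Trim25 (−0.74), Ifitm3 (−1.10) and Ifi35 (−0.60), and DESeq2 called Trim25. The GEMM count of 9 is not firm. It was 3 without MG library 68702 (7.05% of all genes) or BB30101 (9.28%), or without BMDM library 68702 (9.42%) or BB30105 (9.85%). It was 4 without MG library BB30105 (6.92%) and 6 without BMDM library BB30101 (8.03%). The counts of 3 were near or below what the shares over all genes would give. The GL261 count of 4 was 2 without MG library 80767 (6.86% of all genes) or 80769 (9.26%), or without BMDM library 80766 (7.65%) or 80767 (10%). It was 6 without BMDM library 80769 (7.75%), and 0 when only its 6 libraries were fitted (4.44%).

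With all libraries, microglia of GL261 tumours held several of the genes higher than microglia of GEMM tumours, a count that depended on single libraries. In BMDM the share called was below that of all genes with all libraries and above it without tumour 80769. In MG 11 of the 39 genes were higher in GL261 (18.8% of all genes) and none was called lower by edgeR, at an unadjusted p under 0.05 or by DESeq2 (15.5% of all genes in edgeR). In BMDM 3 were higher (10.2% of all genes) and none lower by the same 3 measures (9.46% of all genes in edgeR). The median log2 difference was 0.43 in MG and 0.26 in BMDM, beside 0.04 and −0.04 over all genes. Library totals were 23064781 to 36297826 counts in GEMM MG against 18113450 to 20934656 in GL261 MG. They were 30048409 to 32913488 in GEMM BMDM against 18850626 to 22088979 in GL261 BMDM. Whether GL261 tumours grew in the same kind of mice was not given. Model, mice and library depth therefore cannot be told apart here. Stat2, a subunit of ISGF3, was at 70, 68.5 and 74.5 CPM in GEMM MG and at 224, 217 and 95.1 CPM in GL261 MG, without overlap, a log2 difference of 1.33 ± 0.28 (edgeR adjusted p = 0.00146). Herc6, the ligase that attaches Isg15 in mouse, was called in both lineages: it was at 91.1, 53.6 and 103 CPM in GEMM MG and 203, 202 and 178 CPM in GL261 MG (1.23 ± 0.28, edgeR adjusted p = 0.00265), and at 91.2, 41.9 and 87.1 CPM in GEMM BMDM and 165, 204 and 99.7 CPM in GL261 BMDM (1.09 ± 0.28, edgeR adjusted p = 0.0109).

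Irf7 and Isg15 were likewise called in both lineages, by 0.85 and 1.07 in MG and by 1.12 and 1.08 in BMDM, with overlap between models in BMDM. Oas2, at 36.8, 30.4 and 50.9 CPM in GEMM MG and 125, 130 and 30.8 CPM in GL261 MG, was called at 1.28 ± 0.48 (edgeR adjusted p = 0.0489) although tumour 80769 fell within the GEMM range. Without the libraries of tumour 80769, 18 genes were higher in MG (14% of all genes) and 14 in BMDM (9.55% of all genes). The MG count was 7 without GEMM library 68702 (11.4% of all genes), 3 without GEMM library BB30101 (14.1%) and 7 without GL261 library 80766 (17.5%). The share of members was thus below that of all genes without BB30101 and near it without 80766. The BMDM count was 0 without GEMM library BB30101 (6.56% of all genes), 1 without GL261 library 80766 (9.11%) and 0 without 80767 (7.96%). It was 10 without 80769 (7.19% of all genes) and 0 when only the 6 BMDM libraries were fitted (7.89%).

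The 39 genes moved together from tumour to tumour, and in both models the tumour lowest in MG was also the lowest in BMDM. Their mean log2(CPM + 1) in MG and BMDM was 6.71 and 7.27 in GEMM tumour 68702, 6.27 and 6.58 in BB30101 and 6.84 and 7.14 in BB30105. In GL261 it was 7.33 and 7.53 in tumour 80766, 7.25 and 7.70 in 80767 and 6.50 and 6.52 in 80769. In neither model did the remaining tumours keep the same order in MG and BMDM. GEMM tumour BB30101 was the lowest of its 3 tumours for 36 of the 39 genes in MG and 36 in BMDM, against 34.6% and 33.9% of all genes. GL261 tumour 80769 was the lowest for 33 of the 39 in MG and all 39 in BMDM, against 37.7% and 36.6% of all genes. Markers of other cells moved with both. In BB30101 MG, microglia markers were at 14600 CPM against 20500 and 23000 CPM in the other GEMM MG libraries, monocyte and recruited macrophage markers at 82.8 against 29.3 and 29 CPM, conventional dendritic markers at 57.5 against 14.6 and 16.9 CPM, and endothelial markers (4 genes) at 97.9 against 33.3 and 57.4 CPM. In BB30101 BMDM, microglia markers were at 2780 against 5830 and 4940 CPM and endothelial markers at 170 against 59.9 and 62.7 CPM. Tumour 80769 had the high monocyte and recruited macrophage markers given above, and the part of these cells was not tested.

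Across the 12 tumour libraries, with group means removed, each gene's log2 level was compared with the mean of the other 38 genes. The correlation had a median of 0.91 and ran from 0.59 (Ifitm3) to 0.99 (Ifit3), and 32 of the 39 were over 0.8. The other 15318 genes tested had a median of −0.03 with the mean of the 39, and 4.2% were over 0.8. These are descriptions over 12 libraries that share tumours in pairs. Ifit3, Ifih1, Isg15 and Dhx58 followed the common level most closely, at 0.97 to 0.99, and Ifitm3, Cmpk2 and Rsad2 least, at 0.59 to 0.74.

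**Figure D4:**
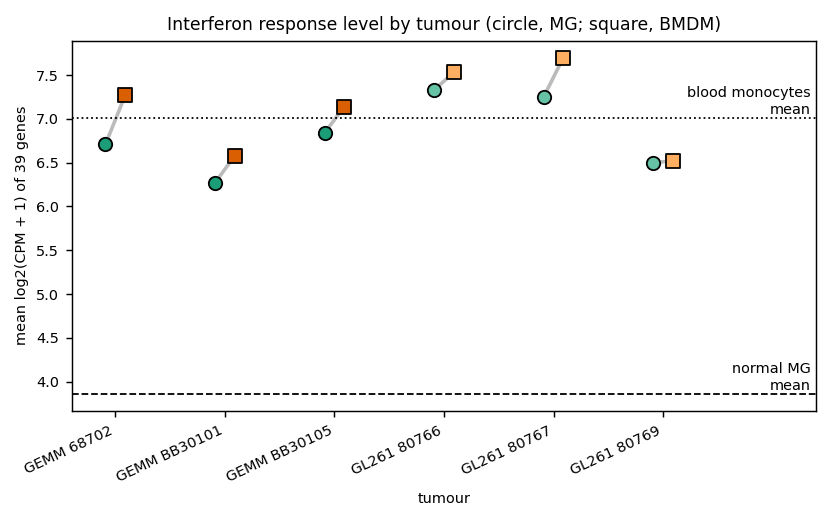
Mean log2(CPM + 1) of the 39 genes in MG (circles) and BMDM (squares) of each of the 6 tumours, joined within a tumour, with lines at the means of normal MG (3.86) and blood monocytes (7.01). Tumours BB30101 and 80769 are the lowest of their models in both lineages.

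Of the pathway's ligands, Ifnb1 (IFN-beta) had the highest counts of the type I genes. Of 15 type I ligand genes, 11 had any count and 2 passed the filter, Ifnb1 and Ifnk. Ifnb1 was at 0.739, 0.548 and 0.583 CPM in normal MG, 4.78, 7.37 and 7 CPM in GEMM MG and 3.34, 1.77 and 0.15 CPM in GL261 MG. GEMM MG lay wholly above normal MG (3.34 ± 1.17 on the log2 scale, edgeR adjusted p = 0.0265), and GL261 MG straddled it. In BMDM it was at 0.0723, 0 and 1.7 CPM in GEMM and 0.0504, 0.361 and 0.139 CPM in GL261, and GEMM BMDM were lower than GEMM MG by −3.42 ± 1.17 (edgeR adjusted p = 0.0448). The highest Ifnb1 count in any library was 253, so these levels are low.

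Ifng, the type II interferon made mainly by T and NK cells, was at 0 in all normal and GEMM MG libraries. It was at 0.986, 1.37 and 0.0748 CPM in GL261 MG, 0.47, 0.736 and 1.94 CPM in GEMM BMDM and 10.5, 2.73 and 0.0929 CPM in GL261 BMDM. Within GL261, tumour 80769 was the lowest in both lineages for Ifng.

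Upstream sensors were called in both directions, and receptors and kinases in both directions in GEMM MG and only lower in GL261 MG. Shares called higher were near or below those of all genes in these comparisons (23% in GEMM and 30.6% in GL261 MG). Of all genes, 20.9% were called lower in GEMM and 27.2% in GL261 MG. Both lists had a larger share called lower in GL261 MG than all genes. Of 7 receptor and kinase genes, 1 was higher and 2 lower in GEMM MG than in normal MG, and 5 were lower in GL261 MG. The IFN-gamma receptor chain Ifngr1 fell by 1.57 and 2.5, the kinase Jak1 by 0.74 and 1.49, and Ifnar1 had a log2 fold change of −0.45 in GL261 MG (edgeR adjusted p = 0.0266). Ifnar2 was at 255 to 267 CPM in normal MG, 255 to 296 CPM in GEMM MG and 97.6 to 156 CPM in GL261 MG. Of 13 sensing genes, 3 were higher and 4 lower in GEMM MG and 3 higher and 7 lower in GL261 MG. The kinase Ikbke stood out among them: it was at 0.873, 0.901 and 1.47 CPM in normal MG, 37.2, 40.3 and 12 CPM in GEMM MG and 32.1, 51.5 and 15.6 CPM in GL261 MG, and rose by 4.77 ± 0.50 (edgeR adjusted p = 1.26e-06) and 4.92 ± 0.51 (edgeR adjusted p = 3.66e-07). The nucleases Trex1 and Samhd1 rose as well, by 1.01 and 0.58 in GEMM MG and 0.98 and 1.07 in GL261 MG. The RNA sensor Tlr7 fell by 1.17 and 2.48, and the DNA sensing adaptor Tmem173 (STING) fell by 0.98 and 1.65. Of 5 feedback inhibitors 2 were lower in GEMM MG and 1 in GL261 MG, and Pias1, a SUMO ligase, fell by 0.87 and 1.55.

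Genes known for their response to IFN-gamma differed between the models. Of 12 such genes, all 12 were higher in GL261 than in GEMM MG, with a median log2 difference of 1.85 (18.8% of all genes called higher, median 0.04), and 11 were higher in GL261 than in GEMM BMDM, with a median of 1.46 (10.2% of all genes, median −0.04). The guanylate-binding protein Gbp2 was at 13.5, 13.3 and 11.2 CPM in normal MG, 89, 68.4 and 116 CPM in GEMM MG and 443, 278 and 180 CPM in GL261 MG, with no overlap between the models (1.72 ± 0.33, edgeR adjusted p = 0.000819). Many of these genes also respond to type I interferon, and the lists were not tested against each other.

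**Figure D5:**
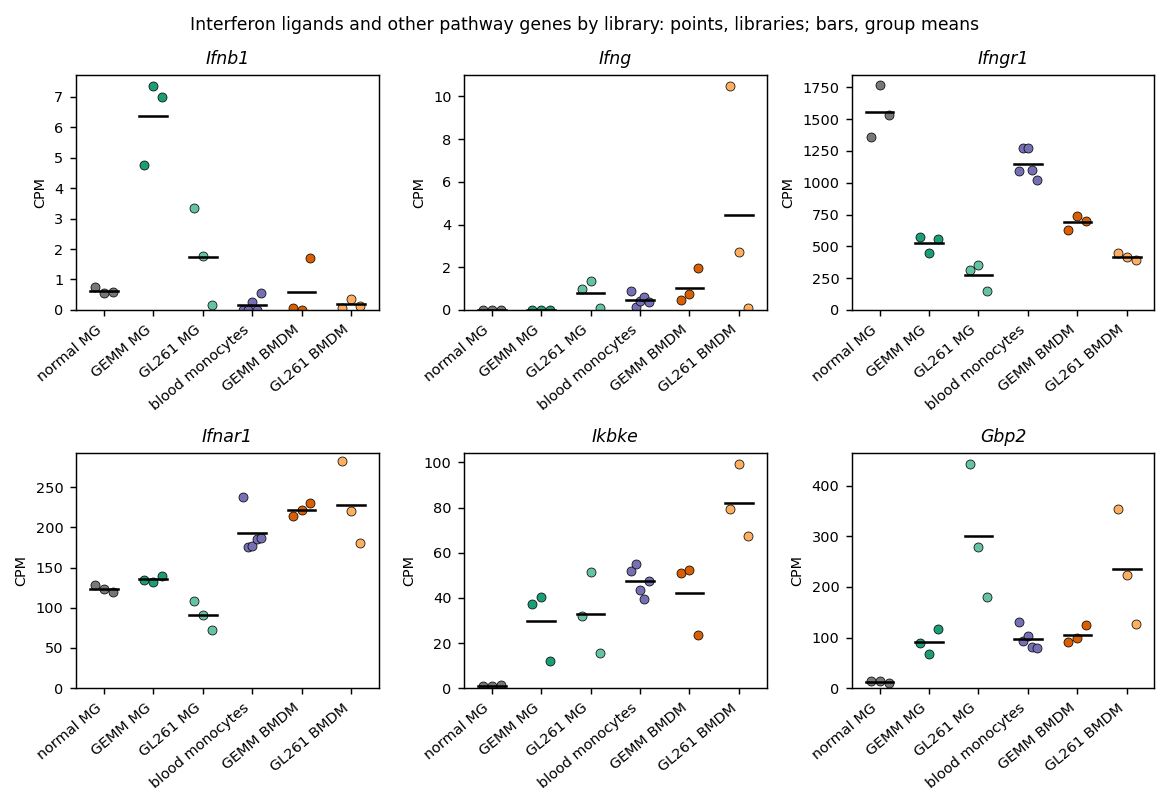
CPM of the ligands Ifnb1 and Ifng, the receptor chains Ifngr1 and Ifnar1, the kinase Ikbke and the GTPase gene Gbp2 in each of the 20 libraries (points) by group, with bars at group means. Ifnb1 is highest in GEMM MG, at 4.78 to 7.37 CPM, and Ifng is highest in GL261 BMDM 80766, at 10.5 CPM.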

How the data were processed

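The deposited table holds raw counts per gene symbol, whole numbers with library totals that differ, made by the authors. CASAVA 1.8, STAR 2.5.0e and HTSeq, beside DESeq2, appear in the submitters' processing notes with the mm10 build, in no stated role. Which annotation and strand option served for counting was not given in the sources used here. Groups and numbers came from the titles. Low genes were removed by filterByExpr (minimum count 10, minimum total 15). In edgeR 4.0.16 (R 4.3.3) a robust quasi-likelihood fit with TMM factors took in all 20 libraries and 6 groups, and 10 comparisons were drawn from it. A gene was called at an adjusted p (Benjamini-Hochberg, 15363 genes) under 0.05. CPM used TMM-scaled library sizes, and levels were averaged as log2(CPM + 1). DESeq2 1.42.0, RLE factors, no filter, fits of only the groups compared, a block by tumour, and fits without each library were alternatives. Wilson intervals came from scipy 1.17.1 and cover counting error only. The fit was tested on simulated data.

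The 39 genes and the other lists were chosen with earlier results of these data known. Genes given by library are up to 3 called members per direction and comparison with the largest fold change and a mean of at least 20 CPM in 1 group; Ifit1, Irf7, Irf9, Isg15 and other members given in full beside them, and the pathway genes named, were picked from the lists for their role with their values seen. The series' design says that MG and BMDM are matched by tumour. In deviations from group means, same-numbered libraries correlated at 0.38, 0.37 and 0.28 in GEMM and 0.51, 0.35 and 0.49 in GL261, above every correlation with another number (at most 0.14), so the numbers were taken as pairs. No 2 libraries of a group agreed within sampling noise (lowest chi-square per degree of freedom 3.2). Monocyte libraries 64818 and 64819 (3.2) and 64820 and 64821 (4.28) were far closer than any other pair within a group (19 to 246). Whether these are separate samples is not given, so the 5 monocyte libraries may hold fewer independent samples. A fit without 1 library of such a pair keeps its partner in. Sequences came from RefSeq promoter windows and gene positions from GENCODE M21, and Cgas and Ifna15 were matched through older symbols. A gene of the pathway lists is not reported here.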

Additional observations from a re-analysis of the deposited data

Results flagged for a closer look

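In blood monocytes, the only group of more than 3 libraries, library 64817 stood apart above the other 4 for 4 of the 39 genes. Oas2 was at 347 CPM there, against 189 CPM in the next library. Oasl1 was at 67.9 CPM against 35.5 CPM, Rtp4 at 358 CPM against 214 CPM and Trim30a at 388 CPM against 325 CPM. In each case the gap to the nearest library, divided by the range of the group, exceeded Dixon's 95% critical value for 5 samples (0.71). Chance flags about 1 in 20 groups, and 39 genes were examined. The other 4 libraries hold the close pairs 64818 with 64819 and 64820 with 64821, which the test takes as separate samples. Library 64817 also had the highest plasmacytoid dendritic markers (152 CPM against at most 66.5) and B cell markers (655 against at most 258). The same held for NK cell markers (120 against at most 49.3) and T cell markers (97.3 against at most 43). Its monocyte and recruited macrophage markers were the lowest, at 4240 CPM. Neutrophil and endothelial markers were not highest there. The part of these cells was not tested.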

How the results depend on the processing

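No gene called in a comparison changed sign there under the alternatives run. The median of the 39 genes in GEMM BMDM against monocytes (−0.13) was 0.09 without BMDM library BB30101, with 10 higher and 7 lower (29.8% and 20.3% of all genes). Of the single-gene values under alternatives, 1843 kept their direction and side of the threshold and 175 lost the call. The losses were uneven: 10 of 340 in GEMM MG and 13 of 407 in GL261 MG against normal MG. They were 41 of 99 in GEMM and 14 of 48 in GL261 BMDM against MG, and 12 of 33 in GL261 against GEMM BMDM. All 124 medians moved by less than the pooled SD within groups of the 39-gene mean. For small medians this check is weak: that of GL261 BMDM against MG fell from 0.21 to 0.02 without MG library 80769. RLE factors, DESeq2 and a fit of only the groups compared each gave 1 gene lower in GEMM BMDM than in MG (main count 0). The shares of all genes were 9.39%, 11.4% and 9.33%. DESeq2 gave 1 lower in the interaction (2.95% of all genes). Without the filter, 5 genes were higher in GEMM BMDM than in MG (7.37% of all genes) and 2 in GL261 (5.5%). With only the groups compared, 0 were higher in GL261 BMDM than in GL261 MG (4.44%) and 0 higher than in GEMM BMDM (7.89%). The replicate block gave 14 higher (15.2%) and 1 lower (10.4%) in GEMM BMDM against MG and 1 lower in GL261 (8.68%). It changed no other call count by over 1.5 times. Both libraries of GL261 tumour 80769 were also left out, chosen after seeing the data. That gave 20 higher in GL261 BMDM against monocytes (32.4% of all genes) and 1 lower against MG (5.52%). In GL261 against GEMM it gave 18 higher for MG (14%) and 14 for BMDM (9.55%). Leaving out 1 library at a time gave these ranges, each with that of the share of all genes called in brackets. Higher in GEMM MG 32 to 35 (18.7% to 21.3%) and in GL261 MG 35 to 39 (24.6% to 28.7%) against normal MG. Lower in normal MG against monocytes 34 to 35 (25.1% to 30%). GEMM BMDM against MG 3 to 6 higher (6.92% to 9.85%) and 0 to 1 lower (4.53% to 8.77%). GL261 BMDM against MG 2 to 6 higher (6.86% to 10%) and 0 to 1 lower (2.9% to 7.39%). GEMM BMDM against monocytes 5 to 10 higher (27.3% to 30.9%) and 7 to 10 lower (19.9% to 24.9%). GL261 BMDM against monocytes 9 to 20 higher (30.4% to 33.6%) and 5 to 9 lower (25.8% to 28%). GL261 against GEMM 3 to 13 higher in MG (11.4% to 17.5%) and 0 to 10 in BMDM (6.56% to 9.11%). The interaction 0 to 1 lower (0.307% to 1.33%). The causes were not tested. Depth limits the monocyte values most, with 5077787 to 7801073 counts a library.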
